A study of Mus musculus with 2 samples.

Results

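The cytosolic ribosomal protein genes encode the proteins that, with ribosomal RNA, build the small (40S) and large (60S) subunits of the ribosome. They were taken as all listed genes whose symbols begin with Rpl or Rps and follow the nomenclature of this family, without pseudogenes and ribosomal protein kinases, which gave 84 of the 32285 listed genes, 52 of the large and 32 of the small subunit. The rule used symbols and no measured value. Fau and Rack1, which also give ribosomal proteins, fall outside it. The genes were measured by single-cell RNA sequencing of epithelial cells from mouse back skin at P1. Both libraries were made from K14-Cre;tdTomato reporter mice, in which Cre driven by the Krt14 promoter acts in the skin epithelium. One, PADI4 WT, is labelled wild type, and the other, PADI4 cKO, also carried Padi4 fl/fl alleles, from which Cre removes the citrullinating enzyme PADI4. In both, the dermal fraction with the growing hair follicles was dissociated, and living tdTomato-positive cells were sorted without further treatment. How many animals entered each library is not given in the sources used here.

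In vertebrates, most ribosomal protein genes are present as a single active copy, with a small number of paralogs, and their products are made in near-equal amounts because a ribosome is built from nearly equal numbers of each. Their mRNAs are abundant and often begin with a C followed by a run of pyrimidines, the 5′ terminal oligopyrimidine (TOP) tract, through which mTOR signaling and LARP1 set their translation. Growing cells, among them the hair follicle matrix, invest heavily in ribosomes, and the study asked how PADI4 affects progenitor proliferation and translation there.

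With 1 library per genotype, no test between genotypes could be made, and each value is given for both libraries. Intervals are exact 95% binomial intervals, for ratios conditional on the summed counts, and cover counting error only. Levels are counts of unique molecular identifiers (UMIs) scaled to a library total of 1e6 (counts per 1e6, CPM). Since each molecule is counted once from its 3′ end, CPM of different genes can be compared without correction for length. After filtering, 8539 epithelial cells of the PADI4 WT library and 7692 of the PADI4 cKO library remained, with 129498637 and 130503168 UMIs and medians of 14109 and 15754 UMIs per cell. The libraries shared 17 cell barcodes. Padi4 does not set the libraries apart, with 109 and 91 UMIs, and the libraries are therefore named by their labels. The libraries also differ in sex. Of the epithelial cells of PADI4 WT, 25.8% had Xist and no Y-linked UMIs and 62.3% had Y-linked and no Xist UMIs, so this library holds cells of more than 1 animal. In PADI4 cKO, 98.2% had Xist and no Y-linked UMIs, and 0 had the reverse. Genotype and sex of the library therefore cannot be told apart unless the comparison is limited to Xist-positive cells. The libraries come from different animals, as do the Xist-positive and Y-linked cells of PADI4 WT. Genotype and animal therefore cannot be told apart in any comparison.

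Cells were gated into 10 epithelial classes by marker genes that include no ribosomal protein gene: lower proximal cup (LPC; Lgr5, Npr3, Frem1), germinative layer (GL; Msx1, Hoxc13), cortex (Cx; Krt31, Krt86), inner root sheath (IRS; Krt71, Krt73), a class with Krtap8-1, Mt4, and Foxq1, outer root sheath (ORS; Sox9, Krt15), upper hair follicle (uHF; Krt79, Cst6), suprabasal interfollicular epidermis (IFE; Krt1, Krt10), sebaceous gland (SG; Cidea, Elovl3), and contractile cells (Acta2, Tagln). The gate placed 5247 and 4711 cells, from 1005 IRS cells of PADI4 WT down to 69 Cx cells of PADI4 cKO, and 2290 and 1896 cells met no class. All markers of the classes were at least 1.5-fold higher in their class than in the other cells, except that 5 of 6 were for uHF. None of the ORS markers was among the 10 leading genes of the ORS class, which were led by Ebf1 and Pdlim3. The classes are ranges of a score and not separate types. Of the gated cells, 14.0% and 15.5% lay within 0.1 of a limit. Transcripts of neighboring classes were present throughout. The median Cx cell had 24 UMIs of the GL markers and 4 of its own, and the median IFE cell 33 of the ORS markers and 14 of its own.

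Ribosomal protein genes took up a large part of all transcripts in these cells, and the inner follicle lineages held more than the other classes. Over all epithelial cells, they made up 21.6% of the UMIs in PADI4 WT and 21.7% in PADI4 cKO. The Cx cells had 25.3% in PADI4 WT (interval 25.2 to 25.3) and 23.4% in PADI4 cKO (23.3 to 23.4). The Krtap8-1/Mt4 cells had 23.4% and 23.5%, the IRS cells 23.2% and 22.8%, and the GL cells 22.9% and 22.8%. In both libraries these were the 4 highest classes, and their interquartile ranges over single cells overlapped those of most others.

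The other classes followed in nearly the same order in both libraries. The SG cells had 22.0% in PADI4 WT and 20.9% in PADI4 cKO, the IFE cells 21.7% and 21.8%, and the uHF cells 21.1% and 20.4%. The ORS cells, whose median of 8704 and 9979 UMIs per cell was the lowest of all classes, had 20.9% in both. The LPC cells, the Lgr5-positive progenitors at the base of the follicle, had 19.4% and 20.2%, and the contractile cells were lowest with 18.0% and 18.1%. IRS and GL cells differed by less than the 2 libraries of the SG or Cx class did, as did ORS and uHF cells, whereas LPC and contractile cells of PADI4 cKO were further apart than that. Under a stricter gate, the LPC share was 17.0% and 18.3%, below that of the contractile cells in PADI4 WT, at 17.9%, and above it in PADI4 cKO, at 18.0%. A filter of the study on cells with a low or high ribosomal share was not used here because it acts on the members themselves. Its lower limit would take out 14.5% of the LPC cells of PADI4 WT and 10.3% of PADI4 cKO, but 0 of the Cx cells, and its upper limit 1.11% and 2.90% of the Cx cells.

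**Figure D1:**
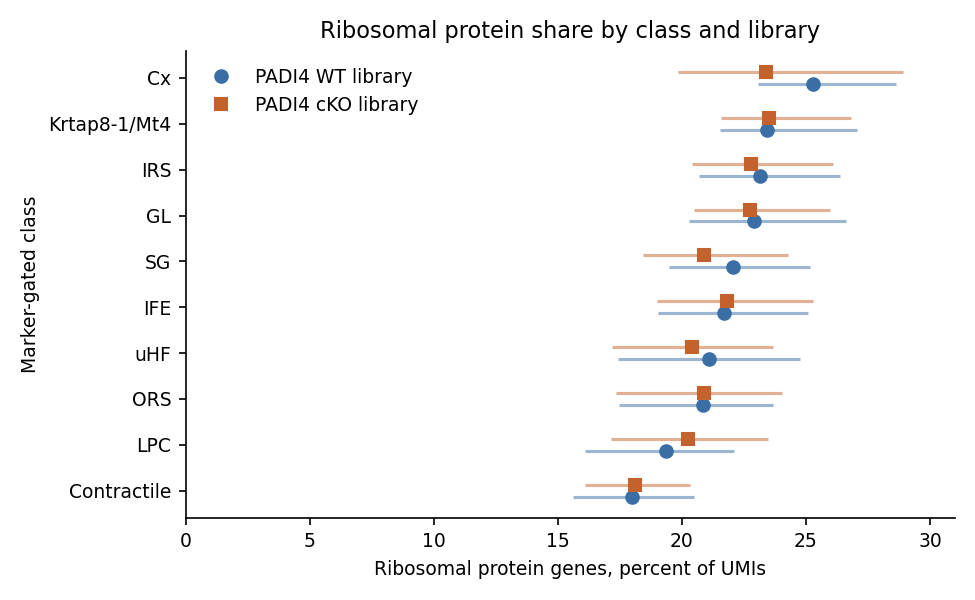
Share of UMIs from the 84 ribosomal protein genes in each marker-gated class. Points are the summed cells of a class in 1 library, lines the interquartile range over its cells. The 4 inner follicle classes lie between 22.8% and 25.3%, and contractile cells are lowest in both libraries.

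Counts per cell also follow the depth of the cells. The Cx cells held 4797 ribosomal protein UMIs on average in PADI4 WT and 4808 in PADI4 cKO, the Krtap8-1/Mt4 cells 4313 and 4873, and the ORS cells 2034 and 2197. Without keratin and mitochondrial transcripts, the ribosomal protein share was 26.2% in Cx and 18.7% in contractile cells of PADI4 WT, and 24.2% and 18.8% in PADI4 cKO. Other genes of the translation machinery followed the same order at its ends. The 22 listed genes outside the rule, among them the elongation factors Eef1a1 and Eef2 and the ribosome-bound Naca and Btf3, summed to 34196 CPM in Cx cells and 25462 CPM in contractile cells of PADI4 WT, and to 31473 and 25377 CPM in PADI4 cKO. In PADI4 cKO, the Krtap8-1/Mt4 cells were highest, with 32041 CPM, as they were in ribosomal protein share. The 12 ribosome assembly genes, such as Nop56, Fbl, and Bop1, had another order. They were highest in IRS cells (1642 and 1706 CPM) and lowest in ORS cells (686 and 742 CPM), and cycling genes such as Mki67 and Mcm5 were also highest in IRS (2215 and 2299 CPM) and lowest in ORS cells (668 and 508 CPM). The 78 mitochondrial ribosomal protein genes, which serve the separate ribosome of mitochondria, spanned 4746 CPM in ORS to 6592 CPM in IRS cells of PADI4 WT and 4676 to 6386 CPM in the same classes of PADI4 cKO.

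Among the members, 81 were detected with at least 100 UMIs, and 76 of them lay above 1000 CPM in both libraries. The highest was Rpl13, a large subunit protein, with 6002 CPM in PADI4 WT and 6004 CPM in PADI4 cKO. Other members with a high mean over classes were Rplp0, the base of the P stalk that recruits elongation factors (4680 and 4741 CPM), Rps24 (4442 and 4547 CPM), and Rps27a, made as a fusion with ubiquitin (4267 and 4379 CPM). The lowest detected members were 4 paralogs, Rpl7l1 (111 and 114 CPM), Rps27l (341 and 327 CPM), Rpl36al (587 and 593 CPM), and Rpl22l1 (659 and 671 CPM), and then Rpl31 (727 and 759 CPM). The mRNA levels of the members thus differed several-fold within the same library.

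The members moved together between classes. In PADI4 WT, 63 of the 81 detected members were highest in Cx cells and 65 lowest in contractile cells. In PADI4 cKO, 26 were highest in Cx and 35 in Krtap8-1/Mt4 cells, and 68 lowest in contractile cells. Cx and contractile cells were compared because they held the highest and lowest summed share in PADI4 WT, so the direction of most members follows from the choice. Between them, 79 of 81 members were higher in Cx in both libraries, with medians of 0.48 and 0.36 on the log2 scale, against medians of −0.03 and 0.04 over all genes compared. Of all genes compared, 40.6% were higher in Cx in both libraries. No member passed a log2 ratio of 1 in both libraries (0 of 81), where 16.5% of the 7736 genes compared did. Many of these genes had far lower levels than most members, so the shares are not matched for level. Rplp0 came nearest, with 1.08 in PADI4 WT and 0.87 in PADI4 cKO. The 2 exceptions were paralogs, Rps27l with −0.12 and −0.30, and Rpl22l1 with 0.03 and −0.21.

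Within the summed ribosomal protein UMIs, a small group of members took uneven shares. The SD of the log2 share over the 10 classes, taken as the smaller of the values of both libraries, had a median of 0.06 over the 81 members and reached 0.20. The 6 most uneven members were Rpl22l1 (SD 0.23 in PADI4 WT and 0.20 in PADI4 cKO), Rplp0 (0.19 and 0.19), Rps27l (0.20 and 0.19), Rps27 (0.18 and 0.22), Rpl7l1 (0.20 and 0.17), and Rpl36 (0.15 and 0.18). The most even were Rps16 (0.01 and 0.02), Rpl8, Rpl18, Rpl10a, Rps23, and Rpl37, with SDs of at most 0.04 in either library. These genes spanned the same change in total level as the summed members, as did Rps16, with 4408 CPM in Cx and 3219 CPM in contractile cells of PADI4 WT.

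Rplp0 took a high share in the inner follicle classes, Rps27 and Rpl36 a low one, and the paralogs Rpl22l1 and Rps27l took their highest share in contractile cells (log2 values of 0.46 and 0.43, and 0.45 and 0.44). Rplp0 held 6669 and 6076 CPM in Cx cells, 5913 and 5994 CPM in Krtap8-1/Mt4 cells, and 3147 and 3331 CPM in contractile cells. Its share was above its own mean over classes in all 4 inner follicle classes and below it in the other 6, in both libraries, with log2 values of 0.29 and 0.27 in Cx and −0.31 and −0.23 in contractile cells. Rplp1, which pairs with Rplp2 on the P stalk, also had its highest share in Cx cells (0.19 and 0.19) but its lowest in ORS cells (−0.26 and −0.34). Rplp2 was lowest in ORS cells too (−0.16 and −0.16), as was Rpsa, the laminin receptor-related protein of the small subunit (−0.18 and −0.19).

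Rps27, a zinc-finger protein of the small subunit, ran the other way. It held 2506 and 2769 CPM in ORS cells, its highest class, against 1820 CPM in IRS cells of PADI4 cKO and 1706 CPM in LPC cells of PADI4 WT. Its share was 0.39 and 0.43 above its mean in ORS and 0.26 and 0.30 below in IRS cells, and below the mean in all 4 inner follicle classes. Rpl36 was likewise below its mean in these 4 classes, and in contractile cells, and highest in SG cells, with 1895 and 2057 CPM and log2 shares of 0.19 and 0.26. Rpl13 also took its largest share in ORS cells (0.21 and 0.26), where its level of 6723 and 6904 CPM was the highest of any class although the summed members were not.

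**Figure D2:**
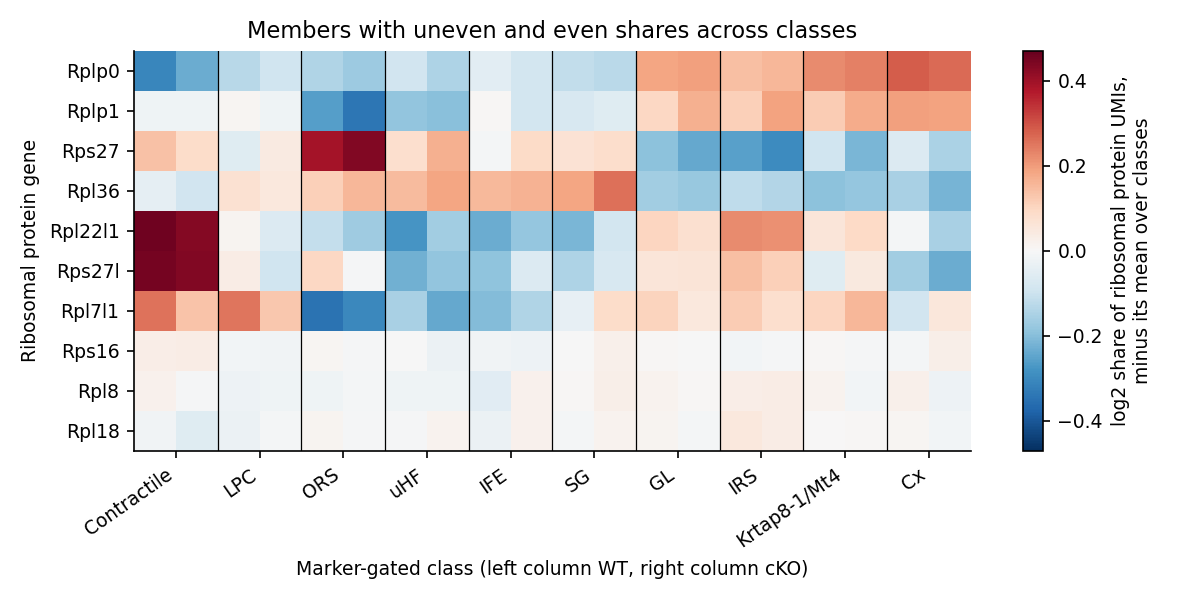
Log2 share of each gene in the summed ribosomal protein UMIs of a class, minus its mean over the 10 classes of that library. Rows are the 6 members with the most uneven shares, Rplp1, and 3 of the most even ones (Rps16, Rpl8, Rpl18). Rplp0 is positive in GL, IRS, Krtap8-1/Mt4, and Cx cells and Rps27 and Rpl36 are negative there, in both libraries.

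Paralog pairs shared their cells and depth, so the share of a paralog in its pair does not depend on the total UMIs. The pair of Rpl22l1 and Rpl22, RNA-binding proteins of the large subunit, was the most balanced. Rpl22l1 gave 42.7% of the pair in contractile cells of PADI4 WT (interval 41.7 to 43.7) and 43.6% in PADI4 cKO (42.5 to 44.7). IRS cells came second with 38.6% and 39.5%. In IFE cells, where it was lowest, it gave 29.4% (28.6 to 30.1) and 31.2% (30.2 to 32.1). The intervals of uHF cells overlapped these, with 29.7% (28.9 to 30.6) and 31.4% (30.4 to 32.4). In contractile cells the level of Rpl22 was at its lowest (974 and 952 CPM), while Rpl22l1 (725 and 737 CPM) stood close to its highest level, reached in IRS cells (793 and 798 CPM).

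Rps27l, a p53-responsive paralog of Rps27, gave 17.8% of its pair in IRS cells of PADI4 WT and 16.6% in PADI4 cKO, and 16.9% and 16.0% in contractile cells. It was lowest in uHF cells of PADI4 WT (11.7%, interval 11.2 to 12.3) and ORS cells of PADI4 cKO (10.0%). The ORS cells of PADI4 WT were not set apart from its uHF cells, with 11.8% (11.4 to 12.3). In LPC cells it gave 14.9% in PADI4 WT and 12.0% in PADI4 cKO.

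Rpl36al gave 34.4% of its pair with Rpl36a in Krtap8-1/Mt4 cells of PADI4 WT and 33.6% in IRS cells of PADI4 cKO, and was lowest in ORS cells with 27.0% and 27.6%. Rpl7l1, whose relation to the ribosome of these cells was not measured, gave only 4.5% of its pair with Rpl7 in LPC cells of PADI4 WT and 2.8% in ORS cells, and 4.3% and 3.1% in Krtap8-1/Mt4 and ORS cells of PADI4 cKO. ORS cells thus held the lowest share of both paralogs in both libraries.

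The tissue-restricted paralogs were near 0. Rpl10l, known from testis, had 0 UMIs in the 8539 and 7692 cells, which, with a limit of 3 cells for a count of 0, allows shares of cells with a UMI of up to 0.0351% and 0.0390%. Rpl3l, known from striated muscle, had 12 and 10 UMIs, and Rpl39l, also known from testis, 3 UMIs and 1 UMI. Their partners Rpl10, Rpl3, and Rpl39 each held more than 2000 CPM in both libraries.

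**Figure D3:**
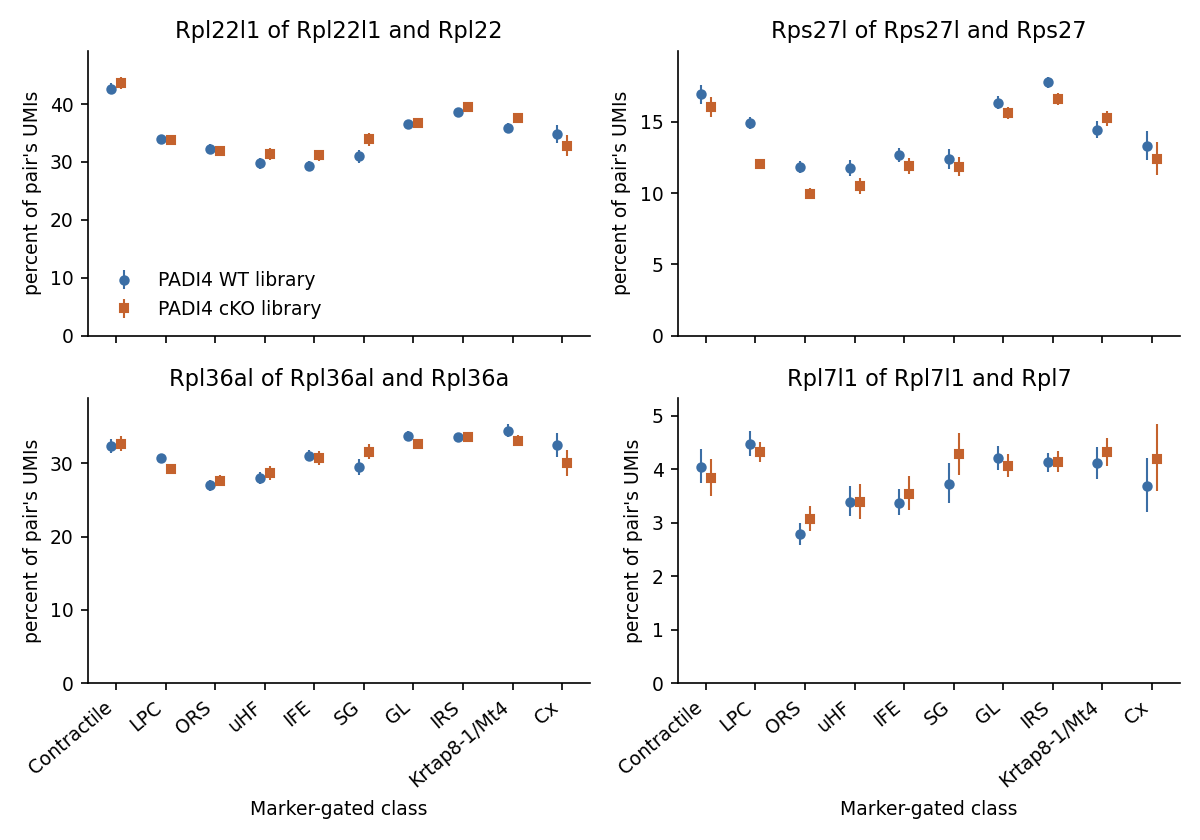
Share of each paralog in the UMIs of its pair, by class and library. Error bars are exact 95% binomial intervals (counting error only). Rpl22l1 is highest in contractile cells in both libraries, with 42.7% and 43.6%, and the shares of Rpl36al and Rpl7l1 are lowest in ORS cells.

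Between the libraries, the summed ribosomal protein genes were nearly level, and 3 single members stood apart. The summed log2 ratio of PADI4 cKO over PADI4 WT was 0.008 over all epithelial cells (interval 0.008 to 0.009). It was 0.06 in LPC cells, with 72 of 81 members above 0, and −0.11 in Cx cells, with 4 of 81 above 0. It was also below 0 in SG (−0.08), uHF (−0.05), IRS (−0.03), and GL cells (−0.01), and between 0.001 and 0.01 in the remaining 4 classes. The median over members was 0.01 over all epithelial cells, against −0.02 over all 14990 genes compared. In LPC cells the median over members was 0.06, against −0.02 over all genes compared, and in Cx cells −0.11 against 0.02. In Xist-positive cells alone, the sum was −0.02 over all epithelial cells, 0.05 in LPC cells, and −0.18 in Cx cells.

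Other gene lists also differed between the libraries, in both directions against the summed members. Of 7 cycling genes, 6 were past 0.5 upwards in Cx cells. Past 0.5 downwards were 4 in SG and 3 in uHF cells, where the summed members were below 0 as well. So were 4 in ORS and 3 in IFE cells, where the summed members were level (0.001 and 0.006), and Mki67 in LPC cells. In IFE cells, Mcm5 was past 0.5 upwards. Of 6 immediate early genes, 4 were past 0.5 upwards in LPC cells and 5 in uHF cells. The immediate early genes summed to 1176 CPM in LPC cells of PADI4 WT and 1782 CPM in PADI4 cKO. Their part in the ribosomal protein ratios was not tested. The ribosome assembly genes had a median ratio of 0.10 over all epithelial cells, with 11 of 12 above 0 and 0 past 0.5. In IFE cells their median was 0.33, with Nop56, Bop1, and Rrs1 past 0.5, and in Cx cells it was −0.14, with Bop1 at −0.52. Neither the 22 translation genes nor the 78 mitochondrial ribosomal protein genes had a member past 0.5 over all epithelial cells (0 in each list), with medians of −0.02 in both.

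Of the 81 members compared over all epithelial cells, 1 was past a log2 ratio of 0.5 in size (Rpl26), where 5.5% of the 14990 genes compared were. Per class, 1 member was past 0.5 in 9 classes and 2 in uHF cells. The called member was Rpl26 everywhere except in Cx cells, where it was Rps18, with both called in uHF cells. Among all genes compared, 4.52% were past 0.5 in LPC, 3.4% in GL, 5.85% in Krtap8-1/Mt4, 9.61% in Cx, 2.49% in IRS, 5.24% in ORS, 6.05% in uHF, 11.5% in IFE, 6.13% in SG, and 4.22% in contractile cells. In each of these comparisons a smaller share of the members than of all genes was past 0.5. As between Cx and contractile cells, most genes compared had far lower levels than most members, so these shares are not matched for level. Shares past 0.5 among genes of equal level were not compared. Apart from Rpl26, Rps18, and Rps2, 78 members lay between −0.07 and 0.13 over all epithelial cells.

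Rpl26 (ENSMUSG00000060938; GRCm38 chr11:68901583-68906989, plus strand), a large subunit protein next to the exit of the peptide tunnel, was higher in PADI4 cKO in every class. Over all epithelial cells, it held 1545 CPM in PADI4 WT and 2516 CPM in PADI4 cKO, a log2 ratio of 0.70 (interval 0.70 to 0.71). The largest ratios were those of IFE cells (1437 and 2517 CPM, 0.81) and LPC cells (1326 and 2314 CPM, 0.80). The smallest were those of Cx cells (2030 and 2770 CPM, 0.45) and Krtap8-1/Mt4 cells (1912 and 2757 CPM, 0.53). The lowest class of PADI4 cKO, contractile cells with 2108 CPM, lay above the highest of PADI4 WT, Cx cells with 2030 CPM. Classes of a library are not replicates, and single cells of the libraries overlapped in their share of Rpl26. Across classes the share of Rpl26 in the summed members was uneven in PADI4 WT (SD 0.11) and even in PADI4 cKO (SD 0.03).

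Rps18 (ENSMUSG00000008668; chr17:33951999-33956001, minus strand), a protein of the head of the small subunit, was lower in PADI4 cKO in every class. It held 3395 CPM in PADI4 WT and 2493 CPM in PADI4 cKO, a ratio of −0.45 (interval −0.45 to −0.44). Its ratios ranged from −0.41 in LPC cells to −0.63 in Cx cells. Rps2 (ENSMUSG00000044533; chr17:24718116-24721929, plus strand), at the mRNA entry of the small subunit, had 4288 and 3612 CPM, a ratio of −0.25 (interval −0.25 to −0.24), and ranged from −0.20 in Krtap8-1/Mt4 cells to −0.35 in Cx cells.

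**Figure D4:**
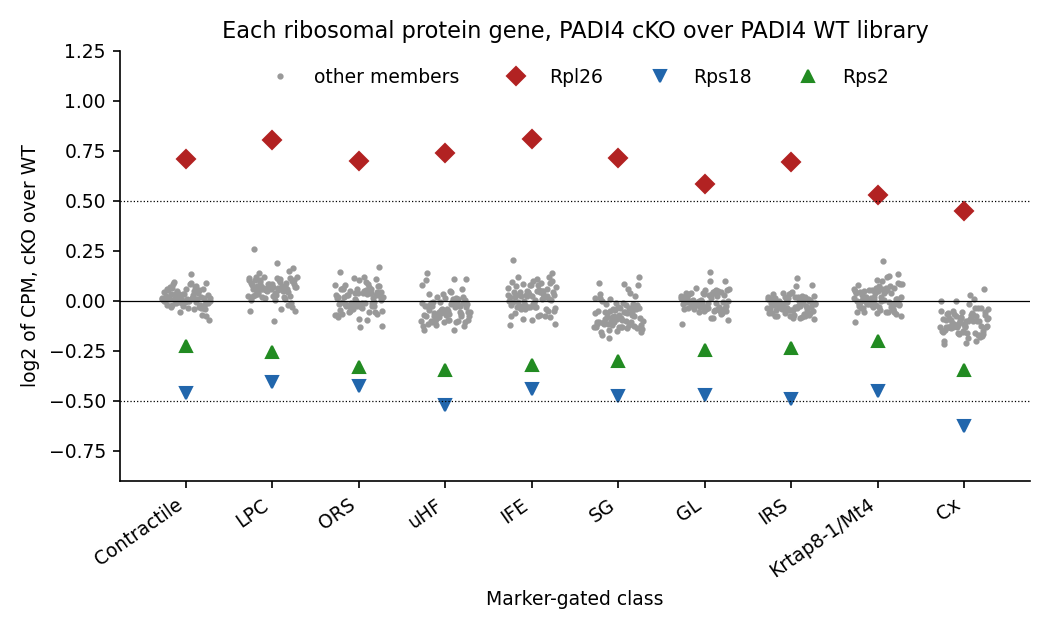
Log2 ratio of CPM, PADI4 cKO over PADI4 WT, for each of the 81 detected members in each class. Dotted lines mark 0.5 in size. Rpl26 lies between 0.45 and 0.81, Rps18 between −0.63 and −0.41, and Rps2 between −0.35 and −0.20, and the other members lie around 0.

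The next highest median ratios over classes were small. Rpl36 had 0.11 over classes, Rps15 0.10, Rpl41 0.07, Rpl27 0.06, Rpl35a 0.06, Rpl38 0.06, and Rps27 0.05. At the lower end, Rpl7a followed with −0.11, Rpl10 with −0.10, Rpl19 with −0.09, and Rpl35, Rpl10a, and Rpl3 with −0.07, −0.07, and −0.06. Rpl7a, Rpl10, Rpl19, Rpl10a, and Rpl3 were below 0 in all 10 classes, and Rpl41 was above 0 in all 10. The 4 X-linked members, in libraries that differ in sex, lay on both sides of 0. Over all epithelial cells, Rpl10 had −0.07, Rps4x −0.003, Rpl39 0.02, and Rpl36a 0.05.

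The direction of the subunit balance changed without the same 3 genes. The ratio of large to small subunit UMIs was 1.21 in PADI4 WT and 1.23 in PADI4 cKO over all epithelial cells and was higher in PADI4 cKO in each of the 10 classes. Without Rpl26, Rps18, and Rps2, it was 1.29 in PADI4 WT and 1.28 in PADI4 cKO and was lower in PADI4 cKO in each of the 10 classes. These genes were picked by their ratios. Rpl26, of the large subunit, was higher in PADI4 cKO, and Rps18 and Rps2, of the small subunit, were lower. A shift in this direction therefore follows from the choice.

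Within PADI4 WT, Rpl26 differed between the Xist-positive and the Y-linked cells, which also come from different animals. The 2206 Xist-positive cells of PADI4 WT held 1906 CPM and the 5322 Y-linked cells 1413 CPM, a log2 ratio of −0.43 of the latter to the former. The 7554 Xist-positive cells of PADI4 cKO held 2516 CPM. Against the Xist-positive cells of PADI4 WT, the ratio was 0.40 (interval 0.39 to 0.41), under the threshold of 0.5, and against the Y-linked cells 0.83. In Xist-positive cells, Rpl26 was above 0 in all 10 classes, from 0.16 in Cx to 0.49 in IFE cells. Rps18 held 3525 CPM in Xist-positive and 3354 CPM in Y-linked cells of PADI4 WT and 2492 CPM in PADI4 cKO. Its ratio between the Xist-positive cells was −0.50, just past the threshold, and that of Rps2 was −0.27.

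The Y-linked cells of PADI4 WT also spread more widely in Rpl26 than its Xist-positive cells. In cells with at least 2000 ribosomal protein UMIs, the median was 6.16 Rpl26 UMIs per 1000 ribosomal protein UMIs in Y-linked cells of PADI4 WT (5th to 95th percentile 3.61 to 11.4), 8.62 in its Xist-positive cells (5.95 to 11.6), and 11.5 in the Xist-positive cells of PADI4 cKO (8.63 to 14.9). The variance of the counts over that of Poisson counts with the same share in every cell was 2.73 in the Y-linked cells, against 1.20 and 1.18 in the Xist-positive cells of PADI4 WT and PADI4 cKO. The Y-linked cells were thus 2.28 times as dispersed as the Xist-positive cells of the same library, where the median over 81 members was 1.03 and Rpl26 was the highest. Rps18 followed with 1.37. Within the Y-linked cells, the shares of Rpl26 and Rps18 had a Pearson correlation of −0.36 over 4040 cells, as a description of cells from 1 library. It was −0.02 and 0.02 in the Xist-positive cells of PADI4 WT and PADI4 cKO. What sets the spread among Y-linked cells was not tested.

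**Figure D5:**
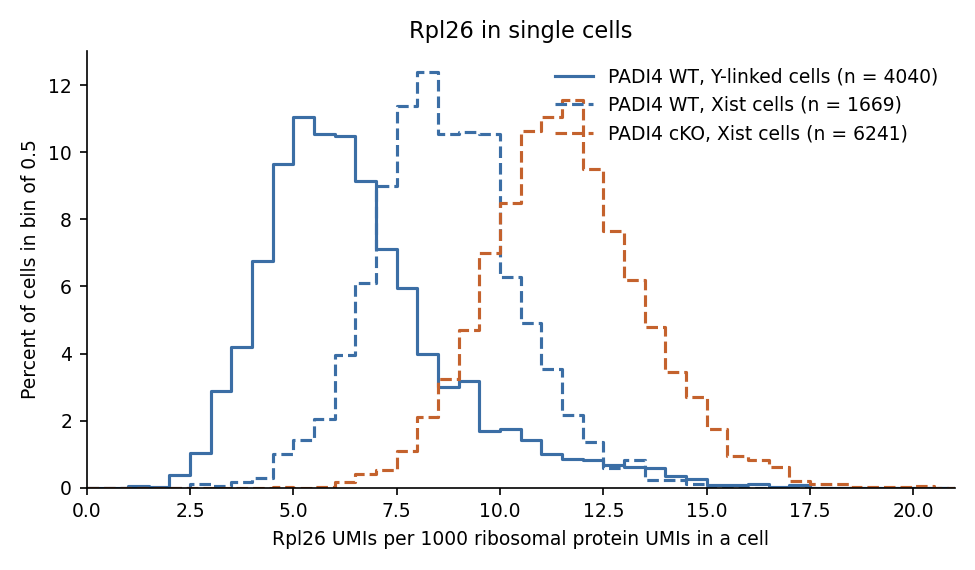
Rpl26 UMIs per 1000 ribosomal protein UMIs in single cells with at least 2000 ribosomal protein UMIs, in bins of 0.5. The medians are 6.16 in Y-linked and 8.62 in Xist-positive cells of PADI4 WT and 11.5 in Xist-positive cells of PADI4 cKO. The Y-linked cells have a long upper tail.

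Empty droplets, with under 100 UMIs each, hold free RNA of the whole suspension. In these, Rpl26 was at 1895 CPM in PADI4 WT and 3381 CPM in PADI4 cKO, and Rps18 at 4093 and 3159 CPM. Ribosomal protein genes made up 26.6% and 27.9% of the UMIs of empty droplets, more than in cells. Free RNA was at most 7.69% and 6.64% of the UMIs of the epithelial cells, as estimated from collagen and hemoglobin genes, and with this subtracted the Rpl26 ratio was 0.70.

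Reads that fit another listed gene equally well bear on a part of these values. Of the 31-base stretches in the last 500 bases of the transcripts of Rps18, 27.9% also occur in another listed gene. Gm10260, which holds 20.5% of them, rose from 1888 to 22566 UMIs, and Gm11361, which holds 26.6%, from 1493 to 3878 UMIs. In CPM, their gain was 19.6% of the loss of Rps18. Summed with both, the ratio of Rps18 was −0.34 (interval −0.35 to −0.34). For Rpl41, which shares 25.2% of its stretches with Gm10076 (1053 and 882.0 CPM), the ratio of 0.10 came to 0.003 when both were summed. Rpl26 shared 1.56% of its stretches and Rps2 0%. Large shares also occur between Rpl35 and Gm2000 (51.9%), Rps27 and Rps27rt (29.6%), Rpl10 and Rpl10-ps3 (27.7%), and Rpl36a and Rpl36a-ps1 (22.7%). These are shares of stretches and not of reads, so how far they affect the levels of these members was not measured. Summed with these partners, the ratios were −0.02 for Rpl35, 0.12 for Rps27, −0.07 for Rpl10, and 0.05 for Rpl36a, against −0.03, 0.12, −0.07, and 0.05 alone.

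The genes around the 3 members are given beside the 5.5% of all genes compared, with at least 100 UMIs, that were past 0.5. Of 42 genes within 1 Mb of Rpl26 with at least 500 UMIs, 2 were past 0.5, Tmem88 (0.64) and Slc25a35 (−0.55), and the median was 0.01. Of 58 around Rps18, 2 were past 0.5, the histocompatibility gene H2-K1 (1.08) and Angptl4 (−0.56), with a median of −0.02. Of 59 around Rps2, 2 were past 0.5, with a median of 0.03. Among the 789 genes with at least 50000 UMIs, of which 80 are members, Rpl26 was the highest after Xist, and 2 genes lay below Rps18. These genes and windows were chosen after the values of the 3 members were seen.

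The 5′ ends annotated for the members are shown for the genes on which the results turn. RefSeq start sites (GRCm38.p6) matched 64 of the 84 members. A C at the start followed by at least 4 bases that are each C or T, read on the transcribed strand, occurred in 13 of the 64 (20.3%), against 2.91% of 20267 listed genes, 5 of 15 translation genes, and 0 of 69 mitochondrial ribosomal protein genes. The translation list was drawn up as translation and TOP mRNA genes, so its count follows in part from that choice. Within 10 bases of the start on either side, where such a run is frequent by itself, it occurred in 39 (60.9%) against 35.2%. RefSeq starts can lie off the start used in skin, so a missing run says only that these letters are not at the annotated base. Each line gives 10 bases before the start and 15 bases from it, with the pyrimidines that run on from the start in capitals.
Rps18, chr17:33951999-33956001 (minus), window chr17:33955651-33955675: cacttccgctCTCTCTTCCacagga
Rps27, chr3:90212522-90213651 (minus), window chr3:90213634-90213658: cgctttcgctCCTTTCCggcggtga
Rpl26, plus, window chr11:68901556-68901580: ggcaacttacagaaccggaagtcgc
Rps2, plus, window chr17:24720053-24720077: gtcgagatctCgcgcttcttggagc
Rpl22l1, plus, window chr3:28805498-28805522: gcgcaagcccgttctcttcccacgg
Rplp0, plus, window chr5:115559457-115559481: cgggtttcgaggaccgcctggttct
Rps18, lower in PADI4 cKO, and Rps27, with its high share in ORS cells, begin with runs of 9 and 7 pyrimidines. The annotated starts of Rpl26, Rplp0, and the paralog Rpl22l1 are not pyrimidines, and that of Rps2 is a C followed by a G. The 6 genes therefore differ at this position, and the members that stood apart between libraries or classes hold both kinds.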

How the data were processed

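Epithelial cells of 1 PADI4 WT and 1 PADI4 cKO library, both given as batch 1, were measured with Chromium 3′ v3.1 chemistry. The authors deposited raw, unnormalized UMI counts for each gene in each droplet, made with Cell Ranger 7.1.0 and, per the submitters' processing notes, mm10, with empty droplets included. Whether intronic reads were counted is not given in the sources used here. Cells were required to have 1000 to 8000 genes, 2000 to 60000 UMIs, and no more than 20% mitochondrial and 1% hemoglobin UMIs, which left 8661 and 7790. The filter of the study on the 5th to 99th percentile of ribosomal share (11.5% and 33.9% here) and CellBender were not applied. Fibroblast-, melanocyte-, and other non-epithelial-gated cells (122 and 98) were left out.

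For each marker list, summed UMIs per 10000 were log-transformed and standardized over cells. A cell took the list with the highest score if this was at least 1.0, led the next by 0.25, and rested on at least 3 UMIs of 2 markers. These limits were set after the marker scores were seen, without values of the members. Cells with tied lists (1002 and 1085) entered no class, and no doublet caller was run. Counts were summed per class and library. Log2 ratios are PADI4 cKO over PADI4 WT, with 0.5 UMI added for genes and at least 100 UMIs required. Analysis used Python 3.11.15, numpy 2.4.6, pandas 2.3.3, and scipy 1.17.1. The ratio and call steps were tested on simulated data.

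The members and lists were chosen with earlier results of these data known. Named genes are the paralog pairs, Rpl26, the P stalk genes and Rpsa, the X-linked members, the 5 highest and 5 lowest in level, the 6 most and 6 least uneven in share over classes, and the 8 highest and 8 lowest in median ratio. Rps4l is not listed, and a few genes, and the results that need them, are not reported here. Positions and transcripts were taken from a GENCODE annotation of GRCm38 that matched 32158 of the 32285 genes.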

Additional observations from a re-analysis of the deposited data

Results flagged for a closer look

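Rpl26 also differed in the empty droplets, whose free RNA comes from the same suspensions as the cells and is no independent check. There, Rpl26 had 11548 UMIs in PADI4 WT and 26084 UMIs in PADI4 cKO, a log2 ratio of 0.84 (interval 0.80 to 0.87). Rps18 had a ratio of −0.37 there.

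Gm10260, which shares sequence with Rps18 and is no member, had 14.6 CPM in PADI4 WT and 172.9 CPM in PADI4 cKO, a log2 ratio of 3.57 (interval 3.50 to 3.64).

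Rpl39l, with 3 UMIs and 1 UMI in all epithelial cells, had 101 and 104 UMIs in empty droplets, or 16.6 CPM in PADI4 WT and 13.5 CPM in PADI4 cKO. The cell type behind these UMIs was not tested.

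The summed ribosomal protein ratio was above 0 in LPC cells (0.062) and below 0 in Cx cells (−0.113). This difference between classes was not tested, since each class has 1 library per genotype.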

How the results depend on the processing

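No paired analysis was possible because each genotype has 1 library. The count of members past 1 between the highest and lowest class stayed at 0 under each of 8 alternatives, with Cx and LPC cells as these classes under the stricter gate and Cx and contractile cells otherwise, and the count of members past 0.5 between libraries stayed at 1 under each planned one. The gene called was not the same throughout, as in Xist-positive cells it was Rps18 instead of Rpl26. With Rpl26, Rps18, and Rps2 left out, which was chosen after seeing the data, the count was 0. The Rpl26 ratio of 0.70 was 0.40 in Xist-positive cells, 0.83 for Y-linked cells of PADI4 WT against Xist-positive cells of PADI4 cKO (chosen after seeing the data), 0.72 after the median of all genes (−0.02) was subtracted, 0.695 with the ribosomal share filter of the study, and 0.696 with free RNA subtracted. The ratio of the highest to the lowest class in ribosomal protein share in PADI4 WT, 1.41, was 1.39 with that filter, 1.47 without cells over 30000 UMIs, 1.46 with free RNA subtracted, and 1.49 under the stricter gate, where LPC cells were lowest. The fold between contractile and IFE cells in the ratio of Rpl22l1 to Rpl22, 1.79 in PADI4 WT, was 1.92 with free RNA subtracted. The summed log2 ratio of 0.008 stayed within 0.03 of 0, but its sign did not hold. It was −0.020 in Xist-positive cells, 0.00048 with the ribosomal share filter, 0.0046 with at least 4000 UMIs per cell, 0.013 without cells over 30000 UMIs, 0.0071 with free RNA subtracted, 0.0069 without mitochondrial genes, 0.0056 also without keratin and keratin-associated genes, 0.026 after centering on all genes, 0.013 as the median of the members, 0.012 for Y-linked against Xist-positive cells, and 0.013 without Rpl26, Rps18, and Rps2. The other 42 values of the alternatives stayed within the counting interval or within 1.5 times the count, among them those with Fau and Rack1 added, which was chosen after seeing the data, and those with a lowest count of 1000 UMIs per cell or of 50 or 500 UMIs per gene. The limits are 1 library per genotype, animals and sex that differ between the libraries, and 69 to 90 cells in the Cx class. Depth does not limit the summed values, but differences among classes of the size seen between libraries have no replicate check.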
